A study of Sus scrofa with 50 samples.

Results

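DHB13, DHB11, the perilipins PLIN1 to PLIN5, CIDEB, CIDEC and the lipase PLPL2 are 10 proteins of the lipid droplet, and they were followed through 5 organs of Korean minipigs: liver, heart, lung, spleen and kidney. Each was defined by Swiss-Prot entry name: the TPM of all assembled transcripts whose best protein match carried that name were summed, where TPM is the length-normalised share of a transcript scaled to a total of 1000000 per library. The 10 members were found on 24 of 57085 transcripts, among 35133 genes so formed, of which 14532 carry an entry name. The list was put together with measured values of these animals in view, and which values were used is not recorded. The levels and type differences of the members are therefore a description, and nothing is read from the calls that fits across all genes gave for them.

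ET-type minipigs (S0235, S0242, S0276, S0309 and S0326) were set against L-type minipigs (S0349, S0355, S0377, S0384 and S0385). All 5 tissues were taken from every animal, which makes 50 mRNA libraries and n = 5 animals per type and tissue. The labels name the types only so, give no treatment, and state neither age nor sex. Depth per library is unknown, since the values are TPM. By correlation with tissue means, 49 of the 50 libraries matched their label best. The exception, the kidney library of ET-type S0235, held the collecting duct channel AQP2 at 0.00956 TPM and is given apart from the other 9 kidneys. Values are mean TPM ± SD, and differences subtract the L-type mean of log2(TPM + 1) from the ET-type mean, with the SE of the 2 groups.

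Neutral fat is stored in droplets with a single layer of phospholipid, and the proteins on that layer decide what enters and leaves. Perilipins coat the droplet and hold lipases off, CIDE proteins move fat from one droplet into another, and PLPL2, the adipose triglyceride lipase, takes off the first fatty acid. DHB13 and DHB11, products of HSD17B13 and HSD17B11, are dehydrogenases that sit on the droplet, DHB13 chiefly in hepatocytes, where human variants that lower its function are known for milder fatty liver disease.

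**Figure D1:**
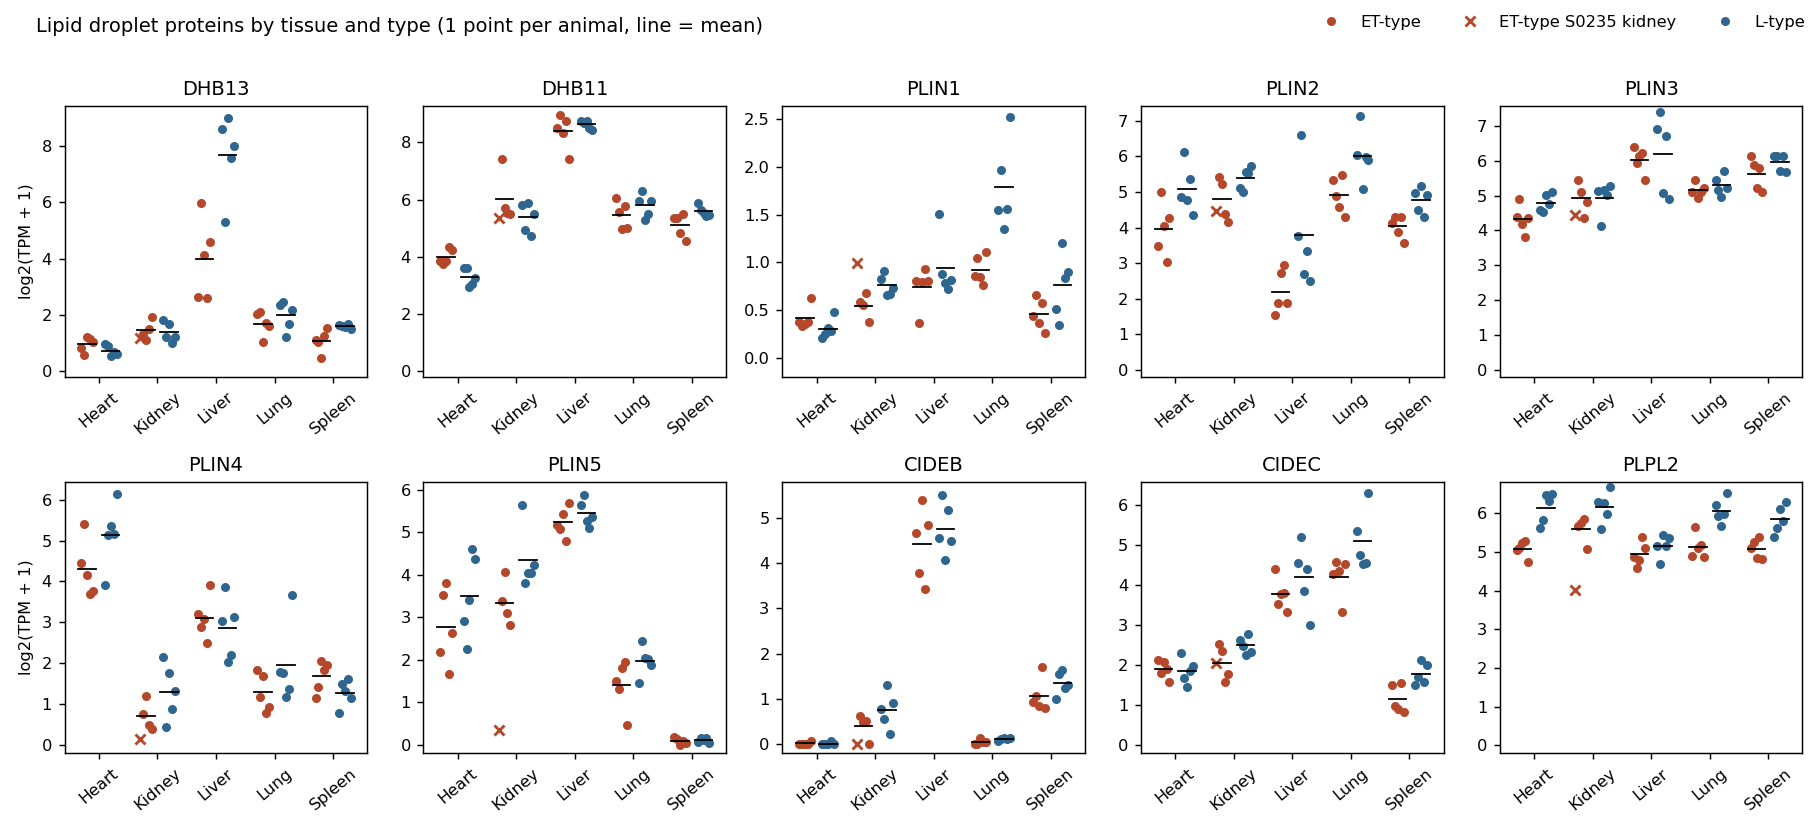
Levels of the 10 lipid droplet proteins as log2(TPM + 1), 1 point per animal, by tissue, ET-type (red) left of L-type (blue), with the black line at the group mean. The cross is the kidney library of ET-type S0235, left out of the mean; each panel has its own scale, and DHB13 in liver is the widest gap between the types.

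DHB13 was a liver gene in these animals, and it was the member that differed most between the types there. In the livers of ET-type animals S0235, S0242, S0276, S0309 and S0326 it stood at 5.24, 61.6, 16.6, 5.14 and 23.1 TPM. In the L-type livers of S0349, S0355, S0377, S0384 and S0385 it stood at 385.02, 38.5, 511, 192 and 255 TPM. Of the 5 L-type livers, 4 lay above every ET-type liver, and L-type S0355 lay below ET-type S0242, so the groups overlapped by that pair. The means were 22.3 ± 23.3 TPM in ET-type and 276.3 ± 181 TPM in L-type livers, a log2 difference of -3.71 ± 0.90. Over the 10 livers the spread was 5.14 to 511 TPM. In bulk tissue, fewer cells of a type and less RNA per cell cannot be told apart. Albumin (ALBU), the defining product of hepatocytes, was at 113840 ± 44722 TPM in ET-type and 116500 ± 22639 TPM in L-type livers. Of the 4 hepatocyte markers found, albumin among them, 3 were lower and 1 higher in ET-type livers on the log2 scale. None was past the limma test, which called 0.00933% of all liver genes, and 0 of the 4 had an unadjusted p below 0.05 in it. The 4 markers summed to 66695 to 194410 TPM in ET-type and 122750 to 175100 TPM in L-type livers. Their part in the DHB13 values was not tested.

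Outside the liver DHB13 was low. Its mean over both types was 149 ± 181 TPM in liver, 2.76 ± 1.16 in lung, 1.76 ± 0.643 in 9 kidneys, 1.62 ± 0.595 in spleen and 0.826 ± 0.315 in heart. Liver was above lung in 10 of 10 animals and the ranges did not meet, while lung, kidney, spleen and heart overlapped with their neighbours in this order. The lowest liver, at 5.14 TPM, was thus close to the highest lung, at 4.55 TPM. The type difference outside the liver was small beside that in liver: 0.22 ± 0.15 in heart, 0.08 ± 0.23 in 9 kidneys (0.02 ± 0.21 with S0235), -0.29 ± 0.30 in lung and -0.53 ± 0.18 in spleen. At such low levels the added 1 TPM pulls log2 differences toward 0. In spleen the means were 1.18 ± 0.547 TPM in ET-type and 2.05 ± 0.142 TPM in L-type animals. The gene, HSD17B13, lies on chromosome 8 of the pig assembly Sscrofa11.1, from 131555517 to 131570067 in the RefSeq gene table.

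DHB13 was summed from a pair of transcripts, and their shares differed more between animals than between tissues. NODE_19004, of 3475 bases and assembled from ET-type liver, and NODE_15963, of 4345 bases and from L-type liver, match the same residues 24 to 299 of the human protein, both at 85.5% identity. In liver, NODE_19004 gave 92.7, 65.6, 99.9, 7.31 and 86.8% of DHB13 in ET-type S0235, S0242, S0276, S0309 and S0326. In L-type S0349, S0355, S0377, S0384 and S0385 it gave 99.9, 55.6, 0.156, 0.203 and 27.0%. The shares ran from near 0 to near 100% within both types, and both groups overlapped, with means of 70.5 ± 37.5% in ET-type and 36.6 ± 42.2% in L-type livers.

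The mean share of NODE_19004 in heart, kidney, lung and spleen followed that in liver from animal to animal. It was 91.3, 66.5, 92.6, 16.0 and 80.3% in the 5 ET-type animals in the order above. It was 93.2, 59.7, 17.2, 2.28 and 33.7% in the 5 L-type animals. Single tissues strayed from these means, most in ET-type S0309, with 4.41 to 44.5%, in L-type S0355, with 49.2 to 81.5%, and in L-type S0385, with 17.1 to 47.6%. In L-type S0377 the 0.156% of liver stood beside 5.98 to 25.7% in the other tissues. Over the 10 animals Pearson's r between liver and the other tissues was 0.994 (permutation p = 6e-05) and Spearman's rho 0.964 (permutation p = 0.0001), both 2-sided. Without S0377 and S0384, the 2 animals farthest from the median liver share, r was 0.997, and with the kidney library of S0235 left out it was 0.993. Against single tissues r was 0.923 for heart, 0.945 for 9 kidneys, 0.991 for lung and 0.984 for spleen. The relation was computed for DHB13 alone, against the mean and against single tissues, and it was chosen after the values were seen. Among the members with several transcripts, DHB13 had the widest spread of the leading share over animals. The permutation p are thus those of a relation picked from several members. Outside the liver the shares rest on DHB13 totals of 0.385 to 4.55 TPM. The points of an animal share that animal, and reads that both transcripts hold are divided between them by the quantifier, so the shares are estimates. Albumin was between 0.0937 and 53.1 TPM in the 40 libraries of the other tissues, against 55175 to 174600 TPM in the livers.

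**Figure D2:**
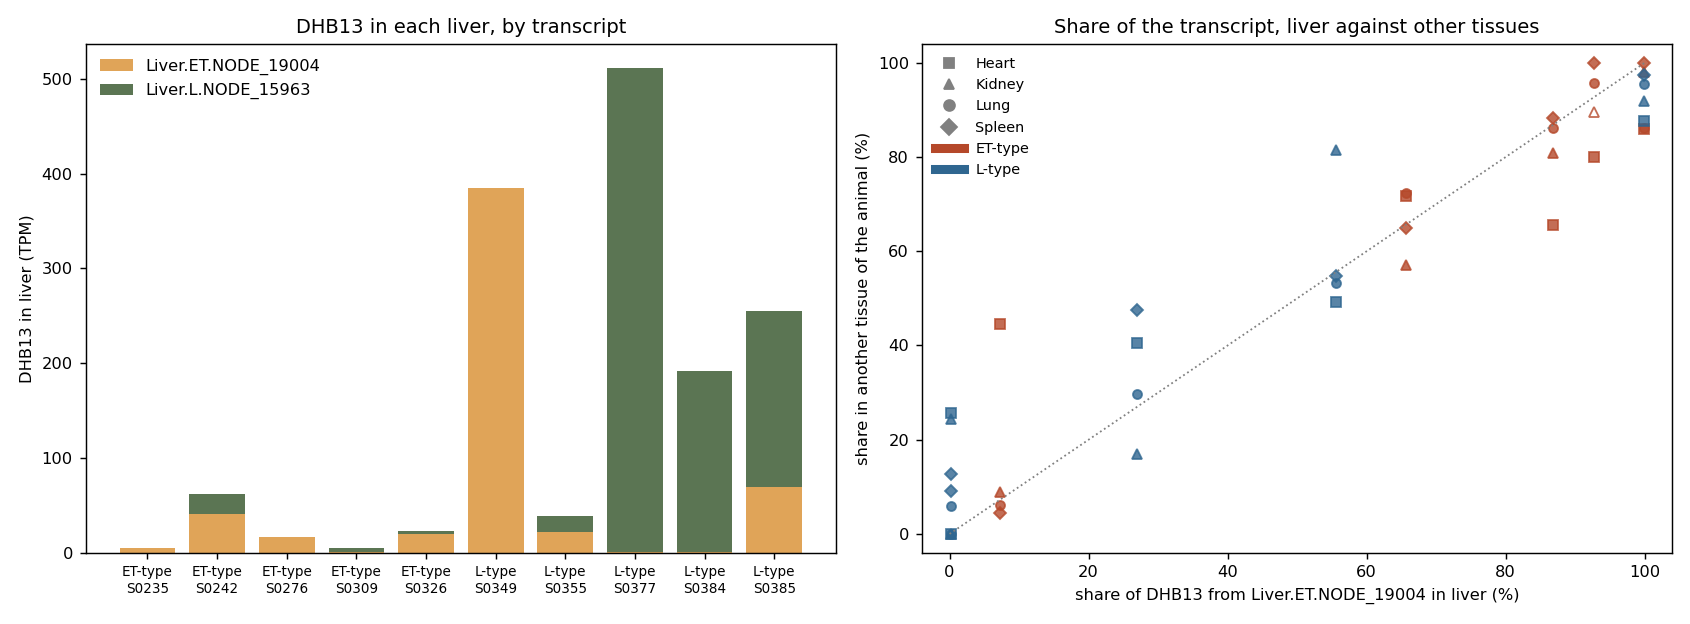
Left, DHB13 in each liver in TPM, stacked by its transcripts NODE_19004 and NODE_15963, ET-type animals left of L-type animals. Right, the share of DHB13 from NODE_19004 in percent, liver on the x axis and another tissue of the same animal on the y axis, 1 point per tissue (open triangle, kidney of S0235); the points run along the dotted line of equal shares.

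The high and the low livers were found with either transcript. ET-type S0276 and L-type S0349, which both drew 99.9% from NODE_19004, stood at 16.6 and 385.02 TPM. ET-type S0309, at 7.31% from NODE_19004, stood at 5.14 TPM, and L-type S0377 and S0384, at 0.156 and 0.203%, stood at 511 and 192 TPM. The share of the leading transcript, the one with the highest summed TPM, had a smaller SD over animal means in the other members with several transcripts. For DHB13 that of NODE_15963 had animal means from 5.49 to 98.1% (SD 36.5) and tissue means from 42.1 to 48.9% (SD 2.56). For PLIN2 it was the reverse, with animal means of NODE_47589 from 38.6 to 52.2% (SD 5.07) and tissue means from 10.8% in heart to 88.2% in kidney (SD 31.7). For DHB11 and PLPL2 the SD was 9.20 and 12.3 over animal means and 3.21 and 4.78 over tissue means, and for PLIN1, PLIN4, PLIN5 and CIDEC the SD over tissue means was the larger. A lesser transcript of DHB11, NODE_40385, was split by animal in every tissue. It gave 0 to 2.12% of DHB11 in ET-type S0235, S0242 and S0276 and L-type S0349, and 14.4 to 42.4% in ET-type S0309 and S0326 and the other 4 L-type animals. This split was noticed after the values were seen and was not tested.

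Across the 10 livers the gene most like DHB13 was CP2E1, a cytochrome P450 that oxidises ethanol and fatty acids, with Pearson's r = 0.981 on log2(TPM + 1) among 7847 genes with an entry and a mean of at least 5 TPM. CP2E1 was at 0.441, 99.1, 15.7, 0.460 and 8.66 TPM in ET-type S0235, S0242, S0276, S0309 and S0326, and at 1987, 15.9, 2439, 175 and 1500.4 TPM in L-type S0349, S0355, S0377, S0384 and S0385. L-type S0355 again lay among the ET-type livers. Next came CAH2, a carbonic anhydrase (0.973), PON3, a lactonase (0.963), PAFA, the hydrolase of platelet-activating factor (0.946), and the adhesion protein CADM1 (0.933). Their means were 3.12 ± 2.61, 7.27 ± 3.70, 5.03 ± 3.63 and 3.90 ± 1.32 TPM in ET-type livers, and 21.9 ± 15.2, 26.1 ± 16.3, 22.3 ± 8.79 and 7.58 ± 2.79 TPM in L-type livers. All 5 share with DHB13 the gap between the types, so these r are no measure within a type. The other droplet proteins had lower values: PLPL2 had r = 0.368, DHB11 0.239, PLIN5 0.217, PLIN2 0.173, CIDEB 0.0171, CIDEC -0.0469, PLIN3 -0.223 and PLIN4 -0.364. Over the 9 livers without L-type S0355 the r of PLIN2 was 0.513. Over 49 libraries, with tissue included, CP2E1 was again first (0.964), followed by the retinol dehydrogenase RDH12 (0.928), CP1A2 (0.922), APOA5 (0.909) and ATTY (0.904), with CIDEB at 0.813 and DHB11 at 0.811.

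DHB11, the close relative of DHB13, was also highest in liver but did not share its gap between the types there. It stood at 358, 501, 318, 432 and 171 TPM in the 5 ET-type livers and at 426, 412, 431, 365 and 347 TPM in the 5 L-type livers. The L-type values lay inside the ET-type range, and the log2 difference was -0.23 ± 0.27. The ratio of DHB13 to DHB11 in liver was 0.0672 ± 0.0585 in ET-type and 0.689 ± 0.411 in L-type animals, while in lung it was 0.0523 ± 0.0161 and 0.0541 ± 0.0123. By tissue DHB11 followed the order liver (376 ± 89.5 TPM), kidney (58.5 ± 44.0), lung (50.9 ± 15.6), spleen (41.1 ± 9.94) and heart (12.2 ± 4.16). Liver was above kidney in 9 of 9 animals and spleen above heart in 10 of 10, whereas kidney, lung and spleen overlapped.

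DHB11 had a higher ET-type mean in heart and in kidney, and in heart the groups stood apart. The ET-type hearts had 13.4, 12.3, 13.5, 19.5 and 17.8 TPM and the L-type hearts 11.2, 11.3, 6.73, 7.32 and 8.59 TPM. The groups did not overlap, and the log2 difference was 0.70 ± 0.18; of all 21014 heart genes tested, 4.68% had groups that did not overlap, in either direction. The 3 red cell markers summed to 129 to 1156 TPM in ET-type and 13.2 to 135 TPM in L-type hearts, all 3 higher in ET-type on the log2 scale and none past the limma test. The 5 cardiomyocyte markers summed to 22217 to 69669 TPM in ET-type and 70406 to 85924 TPM in L-type hearts. All 5 had a lower ET-type mean on the log2 scale, and none was past the limma test. That test called 0.0238% of all heart genes. At its unadjusted p below 0.05 stood 3 of 3 red cell and 4 of 5 cardiomyocyte markers, beside 4670 of 21014 genes. The part of these markers in the heart values of the droplet proteins was not tested. In kidney, 1 animal stood out: ET-type S0242 reached 172 TPM, against 44.0 to 50.6 TPM in the other 3 ET-type kidneys, 40.1 TPM in the library of S0235 and 25.8 to 58.5 TPM in L-type kidneys. There 91.8% of its DHB11 came from NODE_48026, the transcript that matches 274 residues of the protein. The other 2 transcripts, which match 30 residues at the end of the protein, gave the rest, so the outlying value did not rest on these partial matches. In a kidney fit without S0235 the difference was 0.66, against 0.52 with it.

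Which perilipin led depended on the tissue. In spleen PLIN3 made up 70.1 ± 6.55% of perilipin TPM, and in liver 54.0 ± 12.1%. In lung PLIN2 made up 49.9 ± 11.99% and PLIN3 42.9 ± 12.5%, and in kidney PLIN2 made up 42.3 ± 7.49% and PLIN3 37.3 ± 8.44%. Heart was shared by PLIN4 (31.9 ± 8.70%), PLIN2 (28.7 ± 11.3%) and PLIN3 (28.4 ± 6.83%). PLIN5 was largest in liver, at 32.4 ± 11.2%, and in spleen it was 0.0825 ± 0.0490%. PLIN1, the perilipin of fat cells, reached at most 1.80 ± 0.930%, in lung.

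**Figure D3:**
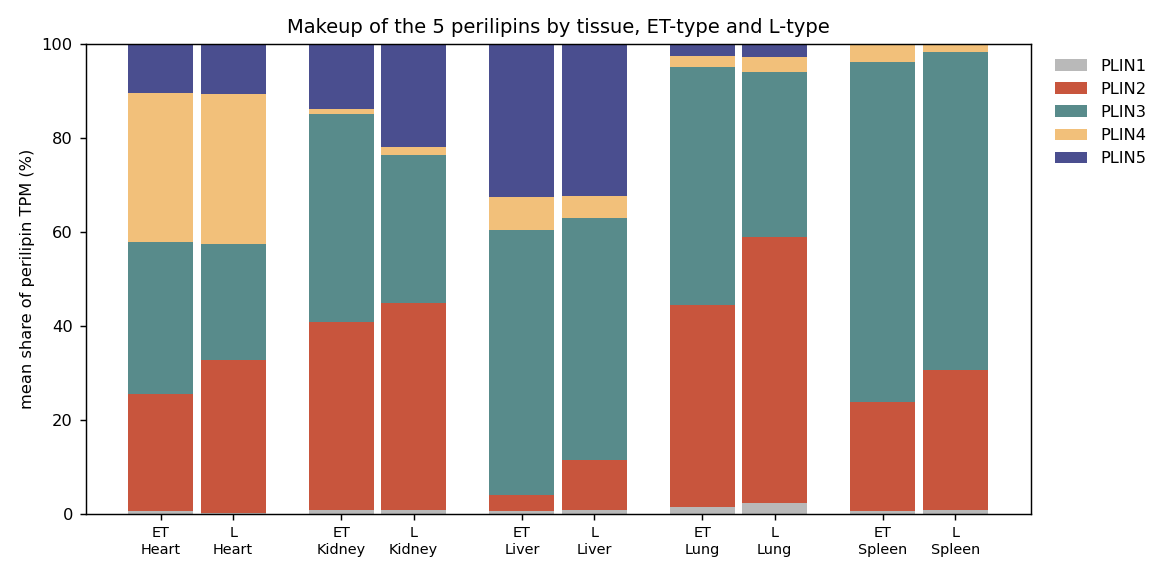
Mean share of each perilipin in the summed TPM of PLIN1 to PLIN5, in percent, by tissue, ET-type bar left of L-type bar (n = 5 animals each, 4 for ET-type kidney). PLIN3 fills most of the spleen and liver bars, PLIN4 shows mainly in heart, PLIN5 in liver and kidney.

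PLIN2, the perilipin of most cells and the one that marks droplet content, was lowest in liver, at 14.7 ± 28.7 TPM, and highest in lung, at 51.1 ± 35.1 TPM; with median-ratio scaling heart was highest and spleen lowest. ET-type livers had 1.90, 2.65, 5.66, 6.65 and 2.71 TPM and L-type livers 12.6, 95.8, 5.48, 9.20 and 4.64 TPM. The L-type liver of S0355 lay far above all others and the remaining values overlapped in part, with a log2 difference of -1.59 ± 0.79. The same animal was highest in heart and lung too, at 68.2 and 139.8 TPM, and it is the L-type animal with the least DHB13 in liver. ET-type means of PLIN2 were lower in each tissue: 16.4 ± 9.29 against 36.5 ± 19.2 TPM in heart, 30.8 ± 10.7 against 71.4 ± 40.3 TPM in lung, 15.7 ± 3.38 against 27.0 ± 6.63 TPM in spleen. In kidney, with the library of S0235 included, 27.3 ± 11.3 TPM stood against 41.6 ± 8.89 TPM. The transcripts of PLIN2 switched by tissue: NODE_32002, which matches 405 residues of the pig protein, gave 87.4% of it in heart, and NODE_47589, which matches 459, gave 88.2% on average in 9 kidneys. In the kidney library of S0235 NODE_32002 gave 83.4%, against 7.79 to 19.8% in the other 9 kidneys.

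PLIN3, which also serves endosomal transport, overlapped between the types in every tissue. Its highest mean was 78.0 ± 42.5 TPM in liver, followed by 56.2 ± 13.8 in spleen, 37.0 ± 6.61 in lung, 30.8 ± 8.52 in kidney and 23.4 ± 6.36 in heart, with ranges that overlapped along the order. The log2 difference was largest in heart, at -0.47 ± 0.21, and in liver and lung it was -0.17 ± 0.53 and -0.14 ± 0.15. In kidney it was -0.01 ± 0.31 over 9 animals and -0.11 ± 0.29 with S0235. ET-type livers had 82.7, 60.3, 69.7, 73.1 and 43.0 TPM, and L-type livers 118, 167, 32.9, 103.7 and 28.9 TPM, a wider spread that takes in the ET-type range.

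PLIN4 had its highest mean in heart and PLIN5 in liver. PLIN4, which is known from fat and muscle, averaged 29.5 ± 18.0 TPM in heart, above the 7.59 ± 3.73 TPM of liver in 9 of 10 animals. ET-type hearts had 21.0, 41.1, 17.0, 11.9 and 12.7 TPM and L-type hearts 14.1, 34.3, 39.8, 34.6 and 69.0 TPM, which overlapped (-0.84 ± 0.47). PLIN5, which ties droplets to mitochondria in cells that burn fat, followed the order liver (40.7 ± 9.61 TPM), kidney (16.6 ± 12.9), heart (9.72 ± 7.11), lung (2.40 ± 1.11) and spleen (0.0697 ± 0.0447). Liver was above kidney in 9 of 9 animals and lung above spleen in 10 of 10, and with median-ratio scaling heart came before kidney. ET-type kidneys had 9.35, 15.7, 7.63 and 6.04 TPM and L-type kidneys 49.1, 12.9, 15.4, 15.5 and 17.7 TPM. The groups overlapped, and the log2 difference was -1.01 ± 0.44 in these 9 kidneys and -1.61 ± 0.72 with the kidney library of S0235, which held 0.261 TPM. In liver the types were close, at 37.7 ± 9.26 TPM in ET-type and 43.7 ± 9.98 TPM in L-type.

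PLIN4 and PLIN5 are neighbours on chromosome 2 of Sscrofa11.1, at 74318624 to 74331920 and 74304613 to 74314314 in the RefSeq table, next to LRG1 at 74300598 to 74303117. The longer PLIN5 transcript, NODE_13505 with 4699 bases, also carried a predicted protein of A2GL, the product of LRG1, so reads of both genes cannot be told apart there. It gave 17.1 to 64.8% of PLIN5 in the 10 livers, and the other PLIN5 transcript, NODE_50976, gave the rest. PLIN4 rested on matches of 64.1 and 55.5% identity to the human protein, the lowest of all members.

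PLIN1 was low in every tissue and highest in lung, or in liver with median-ratio scaling. No library of heart, kidney, liver or spleen exceeded 1.83 TPM, and in lung the ET-type animals had 0.818, 1.06, 0.792, 0.695 and 1.16 TPM against 1.92, 2.91, 1.54, 1.94 and 4.74 TPM in L-type animals. The groups did not overlap in lung, with a log2 difference of -0.86 ± 0.22; of all 29139 lung genes tested, 4.2% had groups that did not overlap. Markers of fat cells were mixed there. ADIPO, LEP and TARG1, which define fat cells, did not exceed 0.915, 0.331 and 0.628 TPM in any of the 50 libraries, and LEP was at 0 in 41 of them. CFAD and FABP4, which other cells also make, were present. ADRB3 was at 0.432 to 2.72 TPM in ET-type and 0.528 to 6.06 TPM in L-type lungs. It was highest in L-type S0385, the lung with the most PLIN1, and its part in PLIN1 was not tested. AQP7 was at 0.134 to 0.460 TPM in ET-type and 0.128 to 0.256 TPM in L-type lungs. The 7 measured markers summed to 1065 to 2093 TPM in ET-type and 1005 to 1738 TPM in L-type lungs, nearly all of it CFAD.

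CIDEB, which in liver loads fat onto secreted lipoprotein, was far higher in liver than elsewhere: 25.6 ± 11.8 TPM, against 1.37 ± 0.559 in spleen, 0.563 ± 0.433 in kidney, 0.0572 ± 0.0408 in lung and 0.00978 ± 0.0208 in heart. Liver was above spleen in 10 of 10 animals with no overlap. ET-type livers had 24.3, 12.9, 41.3, 9.84 and 27.8 TPM and L-type livers 22.5, 44.7, 15.8, 35.2 and 21.4 TPM, which overlapped (-0.33 ± 0.44). Part of the gene lies outside this entry. The entry rests on 1 transcript that matches 66 residues of the cattle protein, while 2 further transcripts whose best match was NOP9, the neighbouring gene on chromosome 7, carry a predicted CIDEB protein. Of these, NODE_21570 stood at 91.3 ± 48.6 TPM in ET-type and 130.3 ± 36.4 TPM in L-type livers, and NODE_34480 at 12.2 ± 10.6 and 7.72 ± 4.23 TPM. CIDEB ends at 74985776 and NOP9 starts at 74985748 in Sscrofa11.1, so the genes overlap at their ends.

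CIDEC, which fuses droplets into large ones in fat cells and in fatty liver, was highest in lung, at 28.1 ± 19.1 TPM, and then in liver, at 16.5 ± 8.61 TPM; kidney, heart and spleen held 4.09 ± 1.24, 2.73 ± 0.681 and 1.90 ± 0.867 TPM. Lung was above liver in 7 of 10 animals, with median-ratio scaling liver came first, and liver did not overlap with kidney. ET-type lungs had 18.4, 23.1, 19.4, 9.08 and 21.9 TPM and L-type lungs 39.8, 26.1, 22.3, 22.5 and 78.0 TPM. The groups overlapped by the highest ET-type lung, and the log2 difference was -0.89 ± 0.40. The highest lung, L-type S0385, also had the most PLIN1 (4.74 TPM) and PLIN4 (11.8 TPM). There the macrophage markers CD68, C163A, MARCO, CD14 and MSRE summed to 879 TPM, against 42.7 to 189 TPM in ET-type and 142 to 325 TPM in the other L-type lungs, and FABP4 stood at 37.3 TPM; their part in the droplet genes was not tested. All 5 macrophage markers had lower ET-type values in lung on the log2 scale. None passed the limma test, which called 0.213% of all lung genes. At its unadjusted p below 0.05 stood 3 of the 5 markers, beside 4729 of 29139 genes.

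PLPL2 was expressed at a like level in all tissues, with a lower ET-type mean in each. Its means ran from 61.6 ± 20.1 TPM in kidney over 52.4 ± 24.1 in heart, 51.0 ± 20.9 in lung and 45.5 ± 16.8 in spleen to 32.9 ± 6.92 in liver, and each overlapped with the next; with median-ratio scaling heart came first and lung last. ET-type hearts had 31.9, 33.4, 36.4, 37.6 and 25.9 TPM and L-type hearts 48.5, 56.1, 87.2, 78.0 and 89.6 TPM. ET-type lungs had 28.8, 48.8, 33.3, 34.9 and 28.0 TPM and L-type lungs 73.4, 60.1, 49.7, 61.6 and 91.2 TPM. In both tissues every ET-type animal lay below every L-type animal, with log2 differences of -1.07 ± 0.20 in heart and -0.93 ± 0.20 in lung, where 4.68 and 4.2% of all genes had groups that did not overlap. In spleen 33.2 ± 6.01 TPM in ET-type stood against 57.8 ± 14.9 TPM in L-type animals (-0.76 ± 0.20), and in kidney 47.9 ± 10.6 TPM in 4 ET-type against 72.5 ± 19.6 TPM (-0.58 ± 0.25). The library of S0235 held 15.2 TPM. Liver differed least, at 30.4 ± 6.91 against 35.3 ± 6.70 TPM (-0.22 ± 0.19). In lung too, marker sums moved with the type: the cardiomyocyte markers were at 32.4 to 80.4 TPM in ET-type and 95.3 to 245 TPM in L-type lungs, and the red cell markers at 54.1 to 714 TPM in ET-type and 7.26 to 107 TPM in L-type lungs. None of them passed the limma test there, which called 0.213% of all lung genes. At its unadjusted p below 0.05 stood 4 of 5 cardiomyocyte and 2 of 3 red cell markers, beside 4729 of 29139 genes. The part of these markers in the lung values was not tested.

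**Figure D4:**
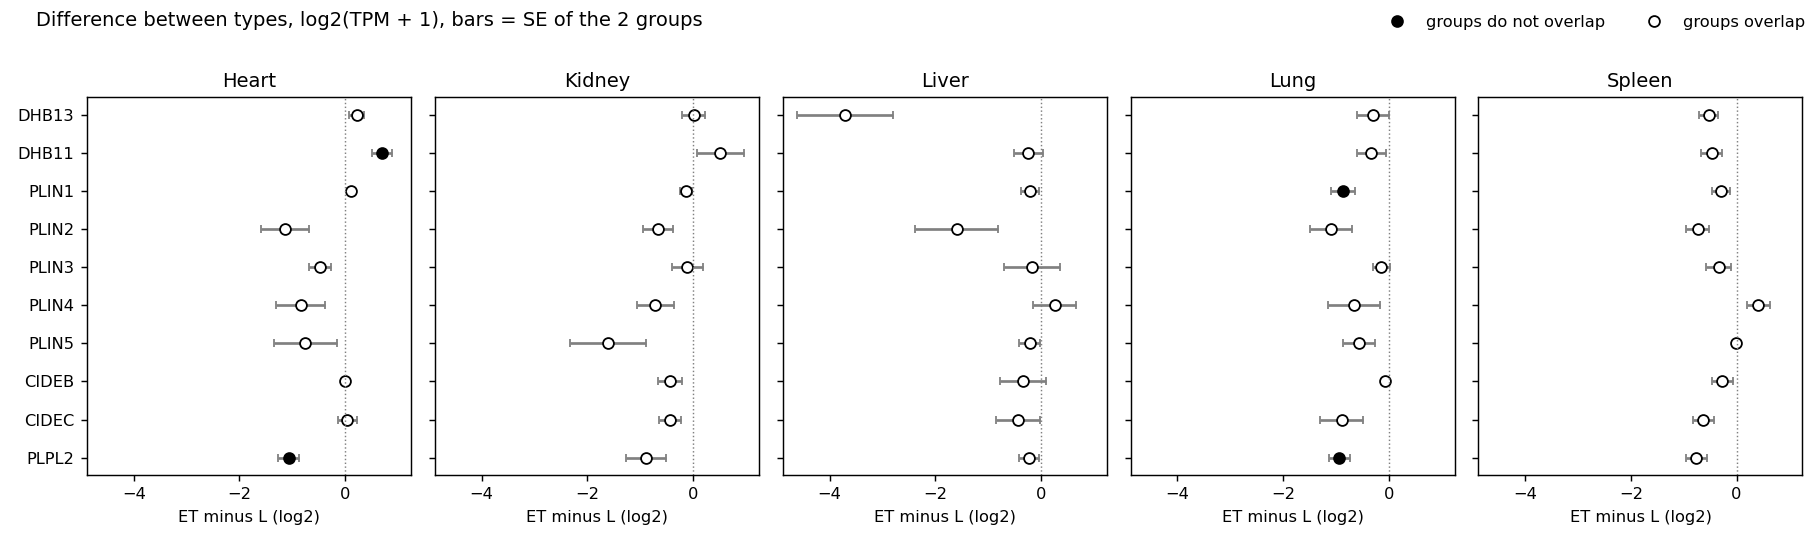
Mean log2(TPM + 1) of ET-type less that of L-type animals for each member and tissue, with bars for the SE of the 2 groups (n = 5 animals each, kidney of S0235 included). Filled points mark groups that did not overlap; most points lie left of 0, and DHB13 in liver lies farthest out.

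Members that passed the filter of a mean of 1 TPM were counted by the direction of their log2 difference. The kidney values of these counts include the library of S0235. In heart the ET-type mean was lower for 5 of 7, beside 41.9% of all genes tested. It was lower for 9 of 9 in lung, beside 64.9% of genes, and for 8 of 9 in liver, beside 57.4%. In spleen 7 of 8 stood beside 86.8% of genes, and in kidney 6 of 8 beside 73.8%. Over all 10 members, filtered or not, it was lower for 5 in heart, 10 in lung, 9 in liver, 9 in spleen and 8 in kidney. The median log2 difference of all genes tested was -0.47 in spleen, -0.27 in kidney, -0.15 in lung, -0.06 in liver and 0.09 in heart. The medians of the members that passed the filter of a mean of 1 TPM were -0.50 over 8 members, -0.54 over 8, -0.66 over 9, -0.23 over 9 and -0.75 over 7 in the same order. Groups that did not overlap were DHB11 and PLPL2 in heart, beside 4.68% of all genes, and PLIN1 and PLPL2 in lung, beside 4.2%. There were none in kidney, liver or spleen, where 1.57, 1.08 and 15.8% of all genes did not overlap. In the limma fit of each tissue, at a Benjamini-Hochberg adjusted p below 0.05, 0 members were called in heart, kidney, liver and lung, where 0.0238, 0, 0.00933 and 0.213% of all genes were called. At an unadjusted p below 0.05 stood 4670 of all genes tested in heart and 2301 in kidney. In spleen 2 of 8 members, PLIN2 and PLPL2, were called lower, beside 22.2% of all genes called and 21.5% called lower. Since the members were chosen with such values in view, nothing is read from these counts.

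The spleen values moved with the scaling. With median-ratio scaling, PLIN2 and PLPL2 had log2 differences of -0.18 and -0.18 in spleen and were not called, DHB11, PLIN3 and CIDEB turned to 0.10, 0.24 and 0.05, and 3.14% of all spleen genes were called. The median log2 difference of all spleen genes was 0.01 with this scaling, against -0.47 without it. The sign also turned for PLIN3 in kidney (0.21) and lung (0.02), PLIN5 in spleen (0.01) and CIDEC in heart (-0.07). Both spleen calls were lost as well without ET-type S0276 or S0326 or L-type S0377, S0384 or S0385, where 41 to 730 spleen genes were called. In ET-type spleens the 5 lymphocyte markers summed to 63.5 to 144 TPM, against 104 to 582 TPM in L-type spleens, and the 3 red cell markers to 110050 to 335770 against 5475 to 149590 TPM. Of the lymphocyte markers, 4 of 5 fell by limma (CCR7, CD3E, CD79A and CD79B, adjusted p = 0.0315 to 0.0467), and of the red cell markers HBA rose (adjusted p = 0.035); none of these markers was called with median-ratio scaling. Their part in the spleen values of the droplet proteins was not tested.

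In 1 limma fit of the 50 libraries together, with the animal as a block and a spread shared by the tissues, the interaction term was called for 5.37% of 29796 genes. Among the 9 members that passed the filter, DHB13 was called and the other 8 were not. The pooled SD of DHB13 within the types was 1.43 in liver and 0.23 to 0.48 in the other tissues. A shared spread thus understates that of liver, where the fit of liver alone did not call DHB13. PLIN1 did not pass the filter of this interaction test. A separate limma fit of the 50 libraries, also with the animal as a block, gave the type difference in each tissue. Each tissue kept the genes of its own tissue-by-tissue test, PLIN1 among them in lung. In this separate fit DHB13 was called in liver, PLIN1 in lung, PLIN5 in kidney and PLPL2 in heart, kidney, lung and spleen. Of all genes, 1.74% were called in liver, 2.46% in lung, 5.01% in kidney, 3.42% in heart and 21.1% in spleen. PLIN2 in spleen was not called in the separate fit. These calls too concern values that were in view when the members were chosen.

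The other genes of droplet biology, 49 found on 5 lists, held no call outside the spleen. Of all genes, 0.0238, 0, 0.00933 and 0.213% were called in heart, kidney, liver and lung, with the kidney library of S0235 included. The lack of calls is therefore not read as a result about the lists. By limma 0 of 43 tested genes passed in heart, 0 of 46 in kidney, 0 of 45 in liver and 0 of 44 in lung, with 9, 2, 6 and 10 at an unadjusted p below 0.05. Of all genes tested, 4670 of 21014 in heart, 2301 of 27303 in kidney, 1412 of 21445 in liver and 4729 of 29139 in lung stood below it. In spleen 6 of 38 fell and 0 rose, beside 22.2% of all genes. Of 17 other droplet proteins these were FAF2, which carries proteins off the droplet for degradation, at 9.47 ± 2.06 TPM in ET-type and 15.5 ± 2.19 TPM in L-type spleens (adjusted p = 0.0339), and ACSL4, which activates arachidonic acid, at 18.9 ± 4.41 and 30.9 ± 8.18 TPM (0.0432). Of 10 tested genes of triglyceride synthesis, LPIN3, a phosphatidate phosphatase, had 7.18 ± 1.22 and 12.1 ± 2.02 TPM (adjusted p = 0.0303), and GPAT1, which starts the synthesis, 3.64 ± 0.636 and 7.08 ± 1.86 TPM (0.0306). Of 5 lipases, LICH, the acid lipase of lysosomes, had 307 ± 146 and 562 ± 162.6 TPM (adjusted p = 0.0473), and of 6 regulators RXRA, a nuclear receptor, 20.4 ± 11.8 and 47.4 ± 21.3 TPM (0.0435). With median-ratio scaling none of these 6 genes was called, and none was without ET-type S0276 or S0326 or L-type S0377, S0384 or S0385. Of the genes that put triglyceride into lipoprotein, APOC3 had 5601 ± 1558 TPM in ET-type and 6628 ± 1208 TPM in L-type livers (adjusted p = 0.93), and TM6S2 had 1.70 ± 0.517 and 2.66 ± 0.742 TPM in kidney (adjusted p = 0.616).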

How the data were processed

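TRIzol-extracted total RNA went into libraries of the TruSeq Stranded mRNA kit, per the labels. The submitters' processing notes name Trimmomatic 0.36, Salmon 1.10.0 and the build Sscrofa11.1. The authors deposited TPM per assembled transcript, each column summing to 1000000, and an annotation with the best Swiss-Prot match. With no read counts, no counting interval could be given. Reads of close relatives can be split between entries.

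TPM was summed by entry name. Differences between the types were tested tissue by tissue on log2(TPM + 1), 5 against 5 animals, with limma 3.58.1 under R 4.3.3. Moderated variances followed a trend with the mean, genes under a mean of 1 TPM were dropped, and a Benjamini-Hochberg adjusted p below 0.05 was called. Log2 differences understate changes of low genes. The interaction of type and tissue used an F test on the 50 libraries, with the animal, named in the labels, as replicate block. The deviations of 2 libraries from their group means correlated at 0.251 on average across genes where both came from 1 animal, with 96 of 100 pairs above 0.1, and at -0.0631 over 400 pairs of unlike animals within a type. The second mean follows largely from the first, since group means were subtracted, and is no separate comparison. Permutation tests used 100000 draws. Tables were made in Python 3.11.15 (numpy 2.4.6, pandas 2.3.3) and figures with matplotlib 3.10.9.

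Members and gene lists (98 of 105 symbols matched) were chosen with earlier results of these data known. Named are the 10 members, list genes that passed (at most 4 per tissue, by p; where none passed, the 2 lowest p of the list) and the 5 genes most like DHB13 over livers and over 49 libraries. Whether animals of a type are related is not given in the labels, so p-values measure the spread between these animals. Settings varied were the filter (none, or a mean of 5 TPM), a pseudocount of 0.1, median-ratio scaling, mitochondrial genes left out, BLASTP entries, each animal left out and 1 fit with the block; leaving animals out of the interaction was chosen after seeing the data.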

Additional observations from a re-analysis of the deposited data

Results flagged for a closer look

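Of 100 groups of 5 animals, 1 per member, tissue and type, 10 held an animal that stood apart from the other 4 by Dixon's test on TPM. For normal values in independent groups chance gives about 1 in 20. The groups share the same 10 animals and TPM need not be normal, so that rate is no measure for the 10. In 2 of the 10 groups, CIDEB in heart, the other 4 values are 0, so that any value above 0 stands apart. High were DHB11 in the kidney of ET-type S0242 (172 TPM, others 40.1 to 50.6), PLIN2 in the liver of L-type S0355 (95.8 TPM, others 4.64 to 12.6), PLIN4 in the lung of L-type S0385 (11.8 TPM, others 1.25 to 2.45) and PLIN5 in the kidney of L-type S0349 (49.1 TPM, others 12.9 to 17.7). CIDEB was high in the spleen of ET-type S0309 (2.28 TPM, others 0.751 to 1.08). PLIN1 was high in the heart of ET-type S0326 (0.548 TPM, others 0.260 to 0.295) and the liver of L-type S0349 (1.83 TPM, others 0.647 to 0.844), and low in the liver of ET-type S0242 (0.286 TPM, others 0.729 to 0.900). In heart CIDEB was listed above 0 in ET-type S0326 (0.0550 TPM) and L-type S0384 (0.0428 TPM) and at 0 in the other hearts. The difference of DHB13 between the types was called in the interaction test, with -3.71 in liver; DHB13 was chosen with these values in view, so the call is no independent support.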

How the results depend on the processing

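Counts of called genes moved with the setting. Heart had 5 genes, and 0 with a pseudocount of 0.1, 3 with no filter, 1 at a mean of 5 TPM and 718 when the tissues were fitted together with a replicate block for the animal. Kidney had 0 genes, and 1 with a pseudocount of 0.1, 1 with no filter and 1369 with the replicate block. Liver had 2, and 1 at a mean of 5 TPM and 374 with the replicate block. Lung had 62, and 19 with a pseudocount of 0.1, 15 at a mean of 5 TPM, 35 with median-ratio scaling, 36 without mitochondrial genes and 718 with the replicate block. Spleen had 5339, 167 of them higher and 5172 lower in ET-type, and 2691 at a mean of 5 TPM; with median-ratio scaling it had 737, 476 higher and 261 lower. With 1 animal left out, counts ran from 0 to 2162 in heart (2162 without ET-type S0242), 0 to 3 in kidney, 2 to 15 in liver (15 without L-type S0355), 4 to 213 in lung and 41 to 6179 in spleen. The interaction was called for 1600 genes, and for 540 with no replicate block, 955 with a pseudocount of 0.1, 1066 with median-ratio scaling, 3883 without the kidney library of S0235 and 285 to 3066 with 1 animal left out. DHB13 was called in each of these, all of which use a spread shared by the tissues that understates that of DHB13 in liver. DHB11 was called too without the kidney library of S0235, without that animal and without S0242, and PLIN1 with no filter (2032 genes). The causes were not tested.

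Of 845 alternative values of the members' differences, 18 moved by more than 1 SD and no called difference changed sign. DHB13 in liver ran from -4.31 to -3.36 and PLPL2 in heart from -1.23 to -0.93, and DHB13 in liver was called with the replicate block only. Without ET-type S0242, DHB11, PLIN2 and PLPL2 were called in heart, and without L-type S0377 PLPL2 in lung. Under median-ratio scaling 6 of 10 members kept their highest tissue. BLASTP entries gave no value for CIDEB. Depth is unknown, so low values such as those of PLIN1 carry an error that could not be given.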
